A study of Mus musculus with 3 samples.

Results

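Ribosomal protein genes encode the protein subunits of the cytosolic ribosome, the machine that translates messenger RNA. The mouse annotation (GENCODE M21, mm10) held 86 protein-coding genes of 21938 whose names start with Rpl or Rps and a digit, or are Rplp0, Rplp1, Rplp2 or Rpsa, once Rps6 kinases and pseudogene names were left out. Of these, 43 encode proteins of the large subunit, 31 proteins of the small subunit and 3 the acidic stalk of the large subunit, and these 77 are called core genes here. Another 8 are paralogs with restricted or partly overlapping use (Rpl3l, Rpl7l1, Rpl10l, Rpl22l1, Rpl36al, Rpl39l, Rps27l and Rps27rt), and the remaining gene, Rps19bp1, encodes a protein that binds Rps19 and is no ribosomal protein. The question was how the accessible sites at these promoters compare across 3 cell states in which SOX2 differs, with ribosomal protein genes taken as a housekeeping reference.

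Chromatin accessibility was profiled by ATAC-seq, where adapters enter open DNA through a transposase, in 1 sample each of SOX2-ON, SOX2-OFF and CEpiLC. SOX2-ON and SOX2-OFF cells came from Sox2-/- HM1 (129) embryonic stem cells that carry a doxycycline-inducible Sox2 transgene at the Hprt locus and the rtTA activator at Rosa26, grown from an edited and picked clone. In SOX2-ON, 1 µg/ml doxycycline was kept throughout differentiation, and in SOX2-OFF it was withdrawn. CEpiLC cells (caudal epiblast-like cells) were wild-type HM1 cells that received no doxycycline. The paper's wild-type control is the XY HM1 TetON line, the parent of its edited lines, so rtTA is shared by all 3 samples. All 3 were taken at 72 h, after culture in N2B27 medium with 10 ng/ml bFGF and 5 µM LGK974, an inhibitor of WNT secretion, to which the GSK3 inhibitor CHIR99021 was added for the last day. Stem cells had been kept on fibroblast feeders, which were separated off before differentiation. Only SOX2-ON contained doxycycline at harvest, so the drug and the SOX2 level cannot be told apart. Since each state had a single sample, no test between states was possible, no p-value is given, and any difference is between these libraries.

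The deposited data are broad peaks called in each sample, 129843, 131520 and 130348 for SOX2-ON, SOX2-OFF and CEpiLC, covering 102, 124 and 93.7 Mb of the genome. Each peak has a fold enrichment, the ratio of its read pileup to the local background of the same library, and a −log10 p. Read totals were not used here. Where 3 values follow each other, they are in the order SOX2-ON, SOX2-OFF and CEpiLC, and values for pairs are in the order SOX2-ON over SOX2-OFF, SOX2-ON over CEpiLC and SOX2-OFF over CEpiLC. Both measures follow depth and enrichment of a library, and the median −log10 p of promoter peaks of all coding genes was 109, 77.6 and 25.4. Peaks were therefore ranked by −log10 p within each list and given as a percentile, where 100 is the strongest peak. The promoter peak of a gene was the strongest peak within 1 kb of any of its annotated starts. A value at a promoter averages over all cells of a culture, so a site open in more cells and a site more open in each cell cannot be told apart. The Sox2 promoter peak had a fold enrichment of 3.00, 2.52 and 2.46, and a peak list cannot show the small edit that ablated the endogenous gene. The promoters of T and Cdx2, genes that mark the primitive streak and caudal epiblast, each had a peak in all 3 lists, with the T peak at percentiles 83.7, 91.4 and 89.4 and the Cdx2 peak at percentiles 84.5, 89.6 and 92.3.

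Ribosomal protein genes are transcribed by RNA polymerase II at high rates in nearly all cells, usually from compact CpG-rich promoters without a canonical TATA box, and many of their transcripts start with a cytosine followed by a run of pyrimidines, the 5-prime terminal oligopyrimidine (TOP) tract through which mTOR controls their translation. Subunits must be made in matching amounts, since they enter ribosomes in fixed proportion, and their promoters carry no single shared element. Motifs described at subsets of them in mammals include sites for ETS factors such as GABP, for YY1 and for SP factors.

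Promoter sequences were read from the mm10 genome between 150 bases before and 50 bases after the reference start, the start of 1 representative coding transcript per gene. The windows of the 86 genes had a median GC content of 57.8%, near the 58.0% of all coding genes, but a median CpG ratio (observed over expected) of 0.885 against 0.592. Coding genes with a promoter peak in all 3 lists had a median GC content of 63.0% and a CpG ratio of 0.763. A high CpG ratio was not particular to the family. It was 0.828 for 78 mitochondrial ribosomal protein genes, 0.847 for 40 proteasome genes and 0.99 for 21 other genes known for TOP transcripts. The following windows run from 150 bases before the start to base 20 of the transcript and are shown because they are the ends of the range described below: Rps25 and Rps19 had the highest mean percentiles of the family, Rps27 the lowest percentile of a core gene in SOX2-ON, Rpl10l a peak in some lists only, and Rpl3l no peak. Capitals mark every match, on either strand, to GGGCGG (SP), AAGATGGC (YY1), CCGGAAG (ETS), TATAAA, GCATGCGC (NRF1 core), CACGTG (E-box) and CTCGCGAG, and a TOP-like run at the start, defined as a C within 5 bases of the start followed by at least 4 pyrimidines.
Rps25 (chr9:44406989-44407158, plus strand): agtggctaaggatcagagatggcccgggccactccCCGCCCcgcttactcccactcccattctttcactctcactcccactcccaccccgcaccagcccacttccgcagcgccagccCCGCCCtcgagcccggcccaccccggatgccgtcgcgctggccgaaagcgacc
Rps19 (chr7:24884221-24884390, plus strand): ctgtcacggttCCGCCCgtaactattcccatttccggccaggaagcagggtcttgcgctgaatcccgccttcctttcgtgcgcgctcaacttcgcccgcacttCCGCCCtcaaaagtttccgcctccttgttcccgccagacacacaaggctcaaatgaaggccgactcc
Rps27 (chr3:90213632-90213801, minus strand): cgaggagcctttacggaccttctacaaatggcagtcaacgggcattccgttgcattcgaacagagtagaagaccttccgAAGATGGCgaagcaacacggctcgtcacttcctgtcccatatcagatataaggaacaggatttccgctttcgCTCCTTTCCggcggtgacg
Rpl10l (chr12:66284382-66284551, minus strand): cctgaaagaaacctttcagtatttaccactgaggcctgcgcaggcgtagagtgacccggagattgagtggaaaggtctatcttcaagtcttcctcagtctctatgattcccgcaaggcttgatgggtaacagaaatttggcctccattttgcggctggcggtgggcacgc
Rpl3l (chr17:24727670-24727839, plus strand): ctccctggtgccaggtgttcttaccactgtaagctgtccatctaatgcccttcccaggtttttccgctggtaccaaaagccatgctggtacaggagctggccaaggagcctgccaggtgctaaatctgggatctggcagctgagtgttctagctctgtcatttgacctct
Rps25 and Rps19 each held 2 SP matches in these bases. Rps27 held a YY1 match and a pyrimidine run of 9 bases that began at base 2 of the transcript, after a G. Rpl10l and Rpl3l held none of the sequences searched.

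The 8-letter palindrome CTCGCGAG, the core of an element found at many housekeeping promoters, was searched as well. It was present in the full window of 8 of the 86 genes (9.30%), beside 0.953% of all coding genes, 1.29% of coding genes with a peak in all 3 lists, 3.85% of the 78 mitochondrial ribosomal protein genes, 5.0% of the 40 proteasome genes (2 genes) and 0 of the 21 other TOP genes. Rpl10a, Rpl17, Rpl26, Rpl27a, Rps6 and Rps28 were among them, so both subunits were represented. The windows of 4 of them are shown to place the palindrome relative to the start, with capitals as above.
Rpl10a (chr17:28328418-28328587, plus strand): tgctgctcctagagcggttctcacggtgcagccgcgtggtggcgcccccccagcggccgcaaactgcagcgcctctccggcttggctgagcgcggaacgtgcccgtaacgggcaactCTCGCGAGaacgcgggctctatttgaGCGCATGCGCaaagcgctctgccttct
Rpl26 (chr11:68901433-68901602, plus strand): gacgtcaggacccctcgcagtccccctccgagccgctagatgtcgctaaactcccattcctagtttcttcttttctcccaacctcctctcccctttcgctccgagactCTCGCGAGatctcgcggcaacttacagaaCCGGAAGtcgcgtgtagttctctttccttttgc
Rps6 (chr4:86857393-86857562, minus strand): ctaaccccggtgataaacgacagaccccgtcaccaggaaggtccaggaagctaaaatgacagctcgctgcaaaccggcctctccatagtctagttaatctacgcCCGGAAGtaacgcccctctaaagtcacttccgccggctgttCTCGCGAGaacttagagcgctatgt
Rps28 (chr17:33824543-33824712, minus strand): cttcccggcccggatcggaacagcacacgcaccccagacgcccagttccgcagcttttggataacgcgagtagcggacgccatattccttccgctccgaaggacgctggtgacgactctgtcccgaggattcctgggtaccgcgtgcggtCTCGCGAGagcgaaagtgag
Counted from the start, the palindrome began at base -33 in Rpl10a, -42 in Rpl26, -5 in Rps6 and 1 in Rps28. The other matches beside it differed from gene to gene. In these bases Rpl26 and Rps6 also held an ETS match and Rpl10a a pair of overlapping NRF1 cores. The promoter peaks of the 8 genes had a median percentile of 95.2, 93.4 and 94.4, beside 95.4, 94.8 and 93.2 for the 69 other core genes.

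Other motifs were shared with other housekeeping genes or close to the share over all genes. An ETS match was present in 26 of the 86 windows (30.2%), beside 9.75% of all coding genes, 12.9% of coding genes with a peak in all lists, 35.9% of mitochondrial ribosomal protein genes and 32.5% of proteasome genes. YY1 matches were found at 6 genes (6.98% beside 2.51% of all coding genes), namely Rpl7l1, Rpl18, Rpl23a, Rpl35a, Rps15a and Rps27. The YY1 share was higher in mitochondrial ribosomal protein genes (12.8%) and proteasome genes (12.5%), and also in the other TOP genes. TATAAA was present at 10 genes (11.6% beside 8.52% of all coding genes and 4.81% of those with a peak in all lists), Rplp0 and Rps14 among them. SP matches were found in 47.7% of windows, beside 41.8% of all coding genes but 55.9% of those with a peak in all lists. E-boxes were found in 4.65% beside 5.87% of all coding genes. NRF1 cores were found in 4.65% beside 2.99% of all coding genes, 10.3% of mitochondrial ribosomal protein genes and 5.0% of proteasome genes. A TOP-like run was found at 24 genes (27.9% beside 18.2%), a count that depends on where the annotation sets the start: of the 66 members in the RefSeq promoter table, only 26 have a start there within 10 bp of the GENCODE one. A match describes letters in a window and is no evidence of a bound factor.

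**Figure D1:**
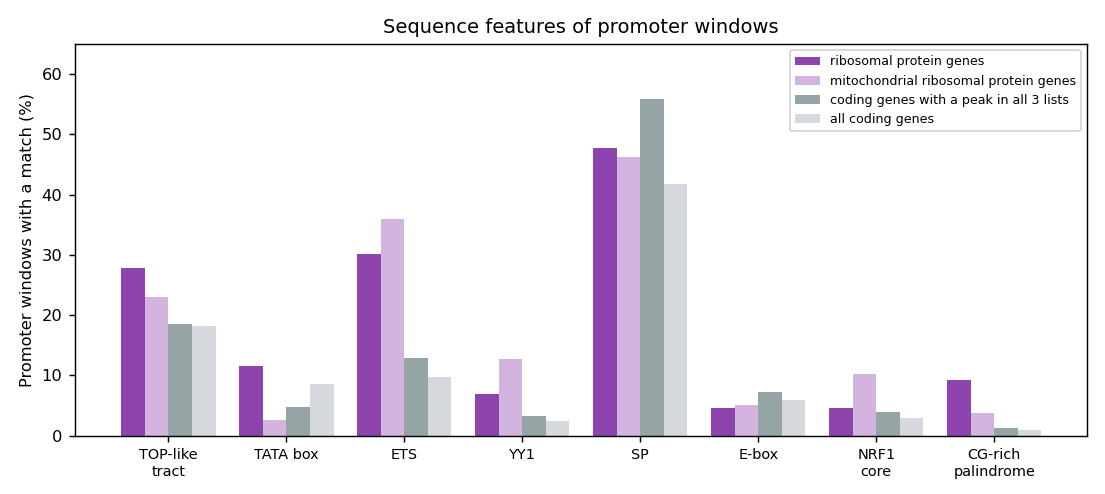
Share of promoter windows, in percent, that hold each sequence feature, for 86 ribosomal protein genes, 78 mitochondrial ribosomal protein genes, coding genes with a promoter peak in all 3 lists and all coding genes. The ETS bars reach 30.2% and 35.9% for the ribosomal lists beside 9.75% for all coding genes, and the palindrome bars read 9.30%, 3.85%, 1.29% and 0.953%.

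All 77 core genes had a promoter peak in each of the 3 lists (100%, Wilson 95% interval 95.2% to 100%, counting error only). Over the 86 genes, 83 had a peak in both SOX2 lists (96.5%, 90.2% to 98.8%), and CEpiLC had a peak at 82 (95.3%, 88.6% to 98.2%). Among all coding genes the shares were 74.9%, 75.8% and 76.3%. Mitochondrial ribosomal proteins (78 of 78), proteasome subunits (40 of 40) and 21 other genes known for TOP transcripts (21 of 21), among them translation elongation factors such as Eef1a1 and Eef2, also had a peak in every list, so full presence was not particular to the cytosolic ribosome.

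The genes without a peak were all paralogs. At Rpl3l, a form of Rpl3 used in striated muscle, the nearest peak lay 3.02, 3.05 and 3.05 kb from a start. At Rpl39l, a form of Rpl39 found mainly in male germ cells, it lay 22.3, 22.2 and 22.1 kb away. At Rps27rt, an intronless copy of Rps27, it lay 3.01, 2.77 and 2.88 kb away. Rpl10l, an intronless copy of Rpl10 used in the testis, had a peak with a fold enrichment of 3.02 and a −log10 p of 25.5 in SOX2-ON (percentile 84.3) and of 1.91 and 8.27 in SOX2-OFF (percentile 70.5), and none in CEpiLC, where the nearest peak was 4.63 kb away. These copies are similar in sequence to their parent genes, and how reads that fit more than 1 copy bear on their peaks was not tested. The other 4 paralogs resembled core genes. Rps27l, a p53-induced form of Rps27, was at percentiles 98.1, 97.1 and 98.4, Rpl22l1 at percentiles 95.6, 95 and 96.4, Rpl36al at percentiles 95.7, 97.0 and 96.1, and Rpl7l1 at percentiles 96.1, 96.8 and 95.8.

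Promoter peaks of ribosomal protein genes were strong, but not among the very strongest. The median percentile was 95.4 (95% interval of the median over genes 94.5 to 96.2), 94.8 (94.1 to 95.3) and 94.0 (92.9 to 94.7), beside 93.8, 93.8 and 93.4 for all coding genes with a promoter peak. The top 10% of the list held the peaks of 79 of 83, 78 of 83 and 72 of 82 genes, beside 68.1%, 70.5% and 67.7% of coding genes with a peak. The strongest 1000 peaks of a list contained 2 of them in every sample (2.41%, 2.41% and 2.44%, beside 6.88%, 6.79% and 6.38% of coding genes). They were Rps19 and Rps25 in SOX2-ON and SOX2-OFF, but Rpl27 (rank 498) and Rpl37 (rank 996) in CEpiLC. The strongest 10000 contained 71, 63 and 54 (85.5%, 75.9% and 65.9%, beside 58.3%, 58.8% and 56.6%). The family thus sat in a narrow band, with its middle 50% between 93.5 and 96.9, 92.7 and 96.3, and 91.4 and 96.4, where that of coding genes lay between 87.5 and 97.2, 88.5 and 97.1, and 87.7 and 97.0. A narrow band was not particular to the family. In every sample the middle 50% of mitochondrial ribosomal protein, proteasome and other TOP genes was also narrower than that of coding genes. Median percentiles were 94.2, 94.4 and 94.7 for mitochondrial ribosomal protein genes and 94.9, 95.1 and 95.4 for proteasome genes. For other TOP genes they were 96.2, 96.3 and 94.5. In CEpiLC all of these medians were above the 94.0 of the family.

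**Figure D2:**
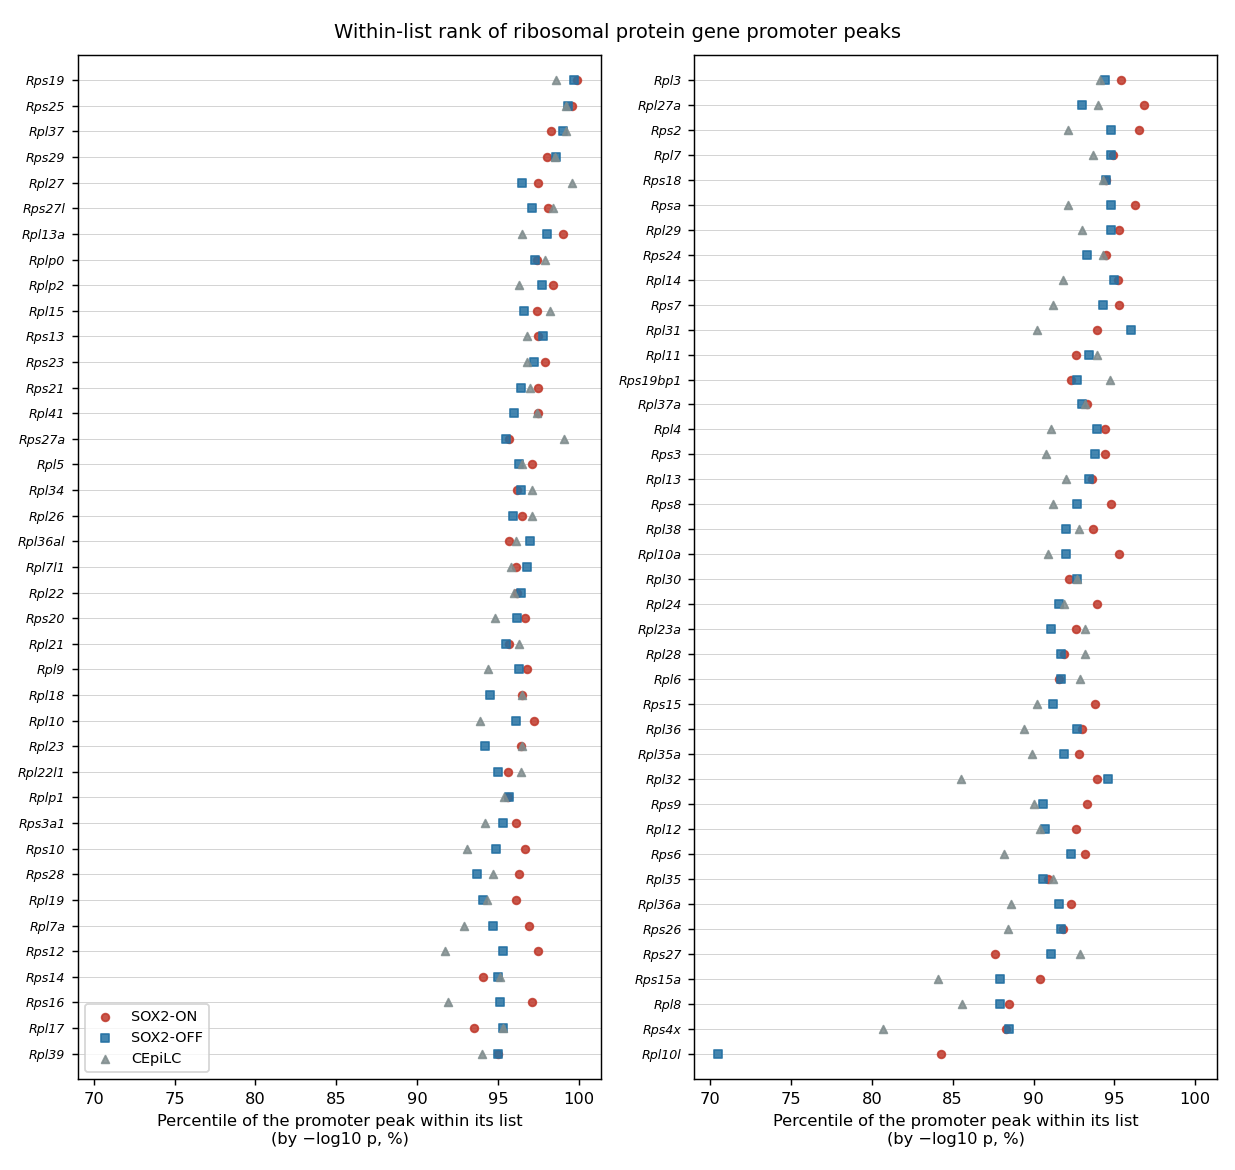
Percentile of the promoter peak within its list (x axis, by −log10 p, 100 is strongest) for 79 of the 83 genes with a peak in at least 1 list, ordered by mean percentile, with circles for SOX2-ON, squares for SOX2-OFF and triangles for CEpiLC, each 1 sample. Rps19 and Rps25 lie at the upper end, Rps4x, Rpl8 and Rps15a near the lower end, and Rpl10l stands apart at 84.3 and 70.5.

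The highest mean percentiles were those of Rps19 and Rps25, both small-subunit genes. Rps19, which is mutated in Diamond-Blackfan anaemia, had a peak at chr7:24883732-24885076 in SOX2-ON and its fold enrichment was 5.44, 3.83 and 2.99. Its rank among all peaks was 123, 455 and 1850. Rps25, needed for initiation at some viral internal ribosome entry sites, had fold enrichments of 6.70, 4.47 and 3.88 and ranks of 480, 906 and 1009. Rps25 thus stayed within the top 1% of each list, at percentiles of 99.6, 99.3 and 99.2, whereas Rps19 went from 99.9 and 99.7 to 98.6. Rpl37 was at percentiles 98.3, 99 and 99.2 and Rps29 at percentiles 98.0, 98.6 and 98.5.

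The weakest core promoters were still called in every list. Rps4x, an X-linked gene, had fold enrichments of 3.55, 2.69 and 2.14 and percentiles of 88.3, 88.5 and 80.7, the last being the lowest of any core gene in any list. Rpl8 was at percentiles 88.5, 87.9 and 85.6 and Rps15a at percentiles 90.4, 87.9 and 84.1. Rps27 ran the other way, with percentiles of 87.6, 91.1 and 92.9.

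By role, levels differed little. Large-subunit genes had a median percentile of 95.2, 94.5 and 93.2 and small-subunit genes of 95.7, 94.8 and 93.1, with overlapping intervals in each list (large and small, 93.7 to 96.2 and 94.4 to 96.7 in SOX2-ON, and 92.7 to 94.3 and 91.2 to 95.1 in CEpiLC). The 3 stalk genes, whose products recruit elongation factors to the ribosome, were all in the upper part. Rplp0 had fold enrichments of 5.78, 3.84 and 3.32, Rplp1 of 4.90, 3.62 and 3.21, and Rplp2 of 4.88, 3.20 and 2.74, and none of the 3 fell under the 95th percentile in any list. The 30 core genes that carry small nucleolar RNA genes in their introns (58 such RNAs in all) had a median percentile of 96.2, 94.9 and 93.6, beside 95.2, 94.5 and 93.7 for the other 47. The 8 core genes with a start facing that of another coding gene head to head, such as Rpl9 with Lias 53 bp away and Rps28 with Ndufa7 10 bp away, had 95.4, 94.2 and 93.6, beside 95.3, 94.8 and 93.7 for the other 69. At 16 members the promoter peak was also the strongest peak of another coding gene, and no peak served more than 1 member.

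Rps19 and Rps25 aside, the genes with well-described roles outside plain subunit supply that are named next lay between the ends of the family range. Rpl5 and Rpl11, which carry 5S RNA and bind MDM2 when ribosome assembly is disturbed, were at percentiles 97.1, 96.3 and 96.5 and at percentiles 92.6, 93.4 and 93.9, respectively. Rps6, the target of S6 kinase, was at percentiles 93.2, 92.3 and 88.2. Rpsa, also known as a laminin receptor, was at percentiles 96.3, 94.8 and 92.1. Rpl38, whose loss alters axial patterning and Hox translation in mice, was at percentiles 93.7, 92.0 and 92.8, Rpl24, the Belly spot and tail gene, at percentiles 93.9, 91.6 and 91.9, and Rpl10a at percentiles 95.3, 92.0 and 90.9.

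How far the percentiles of the family moved between lists, beside those of coding genes, depended on the peaks they were ranked among. Ranked among all peaks of a list, between SOX2-ON and SOX2-OFF, 1 of 83 genes differed by over 10 points (Rpl10l, 13.8 points higher in SOX2-ON), beside 6.82% of the 16022 coding genes with a peak in both. Between SOX2-ON and CEpiLC it was 0 of 82 genes beside 8.58%, and between SOX2-OFF and CEpiLC 0 of 82 beside 6.13%. Over the members the differences in percentile ran from -3.56 to 13.8, from -5.36 to 8.40 and from -3.59 to 9.06 points in the 3 pairs. The count was 0 of 78 for mitochondrial ribosomal protein genes in every pair and 0, 1 and 0 of 40 for proteasome genes. When percentiles were taken among promoter peaks only, 15 of 83 (18.1%), 33 of 82 (40.2%) and 20 of 82 (24.4%) members differed by over 10 points, beside 14.5%, 34.4% and 20.2% of coding genes, so that the share of the family was then the higher one in each pair. With lists limited to peaks with a −log10 q of at least 5, the shares were 4.82%, 59.8% and 47.6%, beside 10.5%, 48.1% and 46.4%.

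The fold enrichment, in contrast, held a difference common to most members. Across all coding genes with a peak in both lists, the median ratio of fold enrichment was 1.25 for SOX2-ON over SOX2-OFF, 1.41 for SOX2-ON over CEpiLC and 1.12 for SOX2-OFF over CEpiLC, a shift of whole libraries. Divided by that median, the ratio of ribosomal protein genes had a median of 1.18 for SOX2-ON over SOX2-OFF (95% interval over genes 1.14 to 1.21), with 76 of 83 genes above 1. For SOX2-ON over CEpiLC the median was 1.17 (1.11 to 1.23), with 71 of 82 above 1. For SOX2-OFF over CEpiLC it was 0.997 (0.969 to 1.04), with 41 of 82 above 1. The first 2 ratios share the SOX2-ON library and are no independent evidence of each other. Genes are not replicates, and a single SOX2-ON library stands behind both values.

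Counted past a step of 1.25 times the median ratio, 18 of 83 members were higher in SOX2-ON than in SOX2-OFF, beside 2.76% of coding genes, and 0 were lower, beside 10.4%. For SOX2-ON over CEpiLC, 29 of 82 were higher beside 6.40% and 1 (Rps27) was lower beside 17.7%. For SOX2-OFF over CEpiLC, 1 (Rpl31) was higher beside 1.52% and 0 were lower beside 4.56%. This measure was added after the data had been seen.

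**Figure D3:**
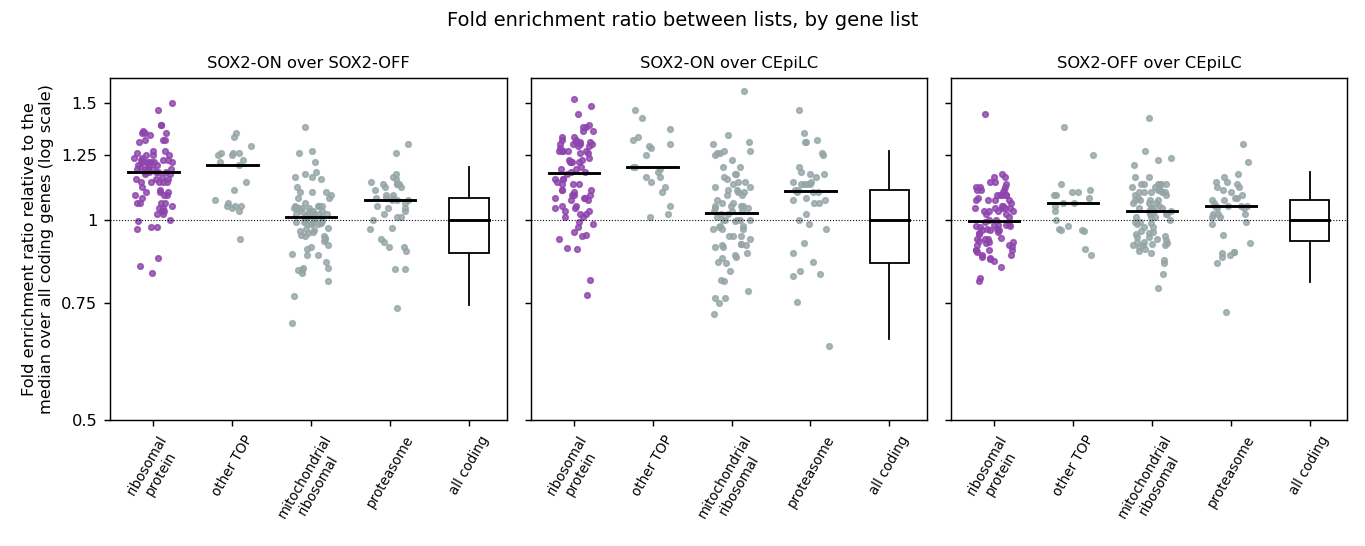
Ratio of promoter fold enrichment between 2 lists, divided by the median ratio over all coding genes (y axis, log scale, no unit), for each gene of 4 lists (points, with their median as a bar) and for all coding genes (box from the 25th to the 75th percentile with the median, line from the 5th to the 95th). Ribosomal protein genes have medians of 1.18, 1.17 and 0.997, other TOP genes 1.21, 1.2 and 1.06, and mitochondrial ribosomal protein genes 1.01, 1.03 and 1.03.

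The same ratio in other housekeeping lists set the family apart from some and beside others. The 21 other TOP genes had medians of 1.21, 1.2 and 1.06, with 20, 21 and 13 of 21 genes above 1. Mitochondrial ribosomal protein genes had 1.01, 1.03 and 1.03 (41, 44 and 48 of 78 above 1), and proteasome genes 1.07, 1.11 and 1.05 (30, 30 and 29 of 40). Stated as levels, ribosomal protein genes had a median fold enrichment of 4.48, 3.00 and 2.70, above the 4.06 of all coding genes in SOX2-ON and below their 3.22 and 2.79 in SOX2-OFF and CEpiLC. Other TOP genes had 4.81, 3.22 and 2.70, and mitochondrial ribosomal protein genes 4.26, 3.47 and 3.03. No test was made between these lists.

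The ratio was also read within bins of level and of base composition, and for peaks of similar width in both lists. Coding genes were parted into 4 bins of equal size by mean fold enrichment, which includes the SOX2-ON value of the ratio itself. The median ratio of all coding genes for SOX2-ON over SOX2-OFF went from 0.874 in the lowest to 1.05 in the highest bin. From the lowest bin up, 11 of 11, 33 of 36, 20 of 25 and 9 of 10 members lay above the coding median of their own bin. For SOX2-ON over CEpiLC it was 11 of 11, 32 of 36, 22 of 25 and 9 of 10, and for SOX2-OFF over CEpiLC 6 of 11, 18 of 36, 13 of 25 and 4 of 10. In 4 such bins of GC content, from low to high, the counts were 33 of 34, 26 of 30, 14 of 15 and 2 of 3 for SOX2-ON over SOX2-OFF and 32 of 34, 27 of 30, 13 of 15 and 3 of 3 for SOX2-ON over CEpiLC. Limited to peaks whose widths agreed within 1.2 times, the median ratios were 1.17, 1.16 and 0.981. Limited to members whose peak served no other coding gene, they were 1.17, 1.18 and 1.00. Whether these properties, or others of the libraries such as depth, account for the difference was not tested.

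Single genes show both the common difference and its exceptions. The largest relative ratio for SOX2-ON over SOX2-OFF was that of Rpl27a at 1.5, with fold enrichments of 4.58, 2.45 and 2.67. For SOX2-ON over CEpiLC, Rps12 had 1.52 (4.99, 2.88 and 2.34), Rps16 had 1.48 (4.90, 2.94 and 2.35) and Rpl7a had 1.44 (4.76, 2.83 and 2.36). In each of these, fold enrichment was highest in SOX2-ON. The relative ratio of SOX2-OFF over CEpiLC was 0.817 at Rpl27a, but 1.1, 1.11 and 1.07 at Rps12, Rps16 and Rpl7a. Rps27 was an exception, with ratios of 0.875 and 0.771 and fold enrichments of 2.85, 2.61 and 2.63. Its fold enrichment was thus nearly equal in all 3 lists, where that of the family as a whole was not. Rpl31 had fold enrichments of 4.18, 4.03 and 2.48, so that SOX2-OFF stood with SOX2-ON, and its relative ratio was 0.831 over SOX2-OFF but 1.2 over CEpiLC. Of the genes with well-described roles, Rpl11 had 0.974 and 1.01, whereas Rpl5 had 1.18 and 1.15, Rpl10a 1.36 and 1.31, Rps6 1.24 and 1.38, and Rpsa 1.27 and 1.36. The peaks compared between SOX2-ON and CEpiLC differed in width at Rps6 (1244 and 2481 bp) and Rpsa (1285 and 1888 bp). How width bears on these ratios was not tested.

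Some shifts in rank towards or away from CEpiLC followed the chromosome. Coding genes on chromosome 11 had lower percentiles in SOX2-OFF than in CEpiLC, by a median of -1.92 points, and all 7 members there were lower too (median -2.09), Rpl27 (96.5 against 99.6), Rps27a (95.5 against 99.1) and Rpl23 (94.2 against 96.5) among them. Coding genes on chromosomes 6 and 8 had a median of 2.07 points in the other direction, and all 3 members there, Rpl32 and Rpl13 among them, were higher in SOX2-OFF (median 5.87). Rpl32 was at percentiles 93.9, 94.6 and 85.5, the widest gap to CEpiLC of any core gene. On the X chromosome coding genes had a median of 1.65 and the 4 members, Rps4x among them, of 2.59. Their cause was not tested. Without chromosomes 6, 8 and 11, the median relative ratios of fold enrichment were 1.18, 1.16 and 0.990.

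Promoter peaks of the family were narrower than those of coding genes. Their median width was 1223 bp (1143 to 1265), 1255 bp (1160 to 1310) and 1234 bp (1113 to 1337), beside 1317, 1425 and 1358 bp. Mitochondrial ribosomal protein genes had 1155.5, 1230 and 1122.5 bp and proteasome genes 1147, 1201 and 1195.5 bp, whereas other TOP genes had 1360, 1542 and 1523 bp. The difference between the family and coding genes lay downstream of the start. Among genes whose peak covered the reference start, peaks of members reached a median of 564, 612 and 576 bp upstream, beside 571, 610 and 565 bp for coding genes. Downstream they reached 624, 616 and 594 bp beside 709, 772 and 758 bp. This was not particular to the family. Peaks of mitochondrial ribosomal protein genes reached 505, 528 and 488 bp upstream and 595, 631 and 594 bp downstream. A position 1000 bp downstream of the start was inside the peak at 4.82%, 8.43% and 17.1% of members with a peak, beside 20%, 25.4% and 25.9% of coding genes. Ribosomal protein genes are short, with a median span of 3204 bp beside 20942 bp for coding genes with a peak in SOX2-ON, and the narrow peak still covered a median of 19.4%, 20.5% and 20.3% of that span, beside 2.88%, 3.13% and 2.97%.

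The peak covered the reference start at 81 of 83 genes in SOX2-ON (97.6%, beside 82.9% of coding genes), 80 of 83 in SOX2-OFF (96.4%, beside 83.5%) and 78 of 82 in CEpiLC (95.1%, beside 81.7%). Its edges were compared between lists for members only, with no value for coding genes. Among the 76 genes with a covered start in all 3, the upstream edge differed by a median of 38 bp between SOX2-ON and SOX2-OFF and 65.5 bp in both pairs with CEpiLC, and the downstream edge by 44, 70.5 and 59 bp.

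**Figure D4:**
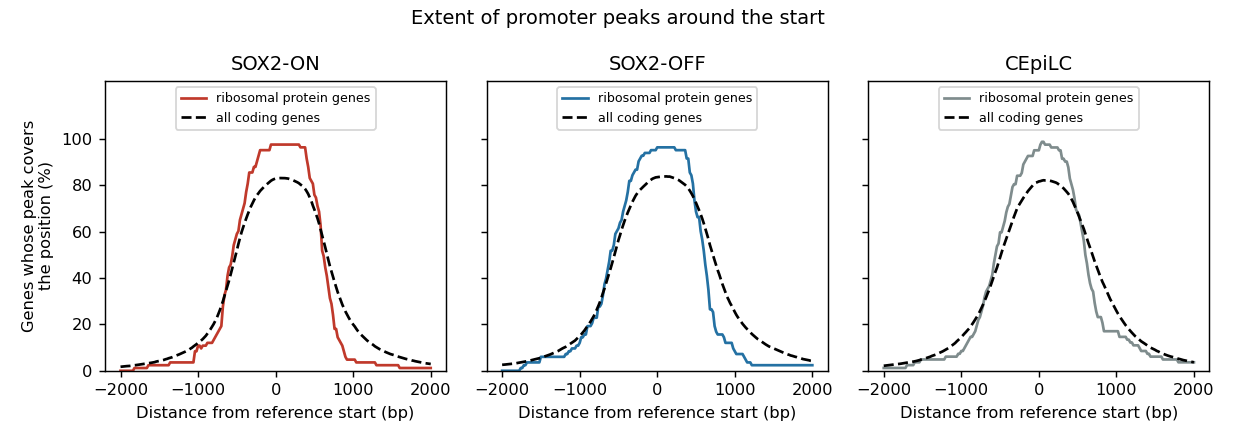
Share of genes, in percent of those with a promoter peak, whose peak covers each position from 2 kb before to 2 kb after the reference start (x axis, bp), for ribosomal protein genes (solid) and all coding genes (dashed) in SOX2-ON, SOX2-OFF and CEpiLC. The solid line is higher at the start (97.6%, 96.4% and 95.1% beside 82.9%, 83.5% and 81.7%) and lower at 1000 bp downstream (4.82%, 8.43% and 17.1% beside 20%, 25.4% and 25.9%).

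Width differed by over 1.5 times between SOX2-ON and SOX2-OFF at 4 of 83 genes, beside 11.5% of coding genes, between SOX2-ON and CEpiLC at 9 of 82 beside 13.7%, and between SOX2-OFF and CEpiLC at 6 of 82 beside 13.3%. At Rps18, Rpl18 and Rpl36 the strongest peak near the gene was a different one in different lists. Such peaks, which did not overlap, were found at 1 of 83, 3 of 82 and 2 of 82 members. Among coding genes the shares were 2.5%, 3.41% and 2.73%. The Rps18 peak lay over the start in SOX2-ON (chr17:33955285-33956311) and near a downstream annotated start in SOX2-OFF (chr17:33950487-33952245), and the peak nearest to its reference start was 1027, 1007 and 899 bp wide with fold enrichments of 3.35, 2.43 and 2.32. With such genes left out, 3, 7 and 6 members were past 1.5 times, beside 10.3%, 12.2% and 12.0% of coding genes.

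Rpl24 was 1178, 2666 and 2103 bp wide, with 15.3%, 22.4% and 25.6% of its transcript span covered. Rps6 kept to 1244 and 1047 bp in SOX2-ON and SOX2-OFF and was 2481 bp wide in CEpiLC, where the peak covered 87.6% of its span against 27.0% and 35.1%. Rps3 (1144, 1200 and 2243 bp) and Rps13 (1191, 1265 and 2245 bp) were also wide in CEpiLC only, and Rps28 was narrow there (1183, 1406 and 653 bp). A broad call joins neighbouring sites when the signal between them passes the caller's limit, so a change of width can be the joining of a second site. Among the widest peaks by mean were those of Rpl41 (2190, 2868 and 2838 bp, over a transcript span of 1192 bp) and Rps15a (1966, 2337 and 2802 bp), and the narrowest were those of Rpl28 (792, 663 and 596 bp), Rpl36 (867, 693 and 519 bp) and Rpl17 (788, 766 and 534 bp). The Rpl36 peak did not cover the reference start in SOX2-ON and SOX2-OFF. The peak nearest to that start was 741, 708 and 519 bp wide.

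**Figure D5:**
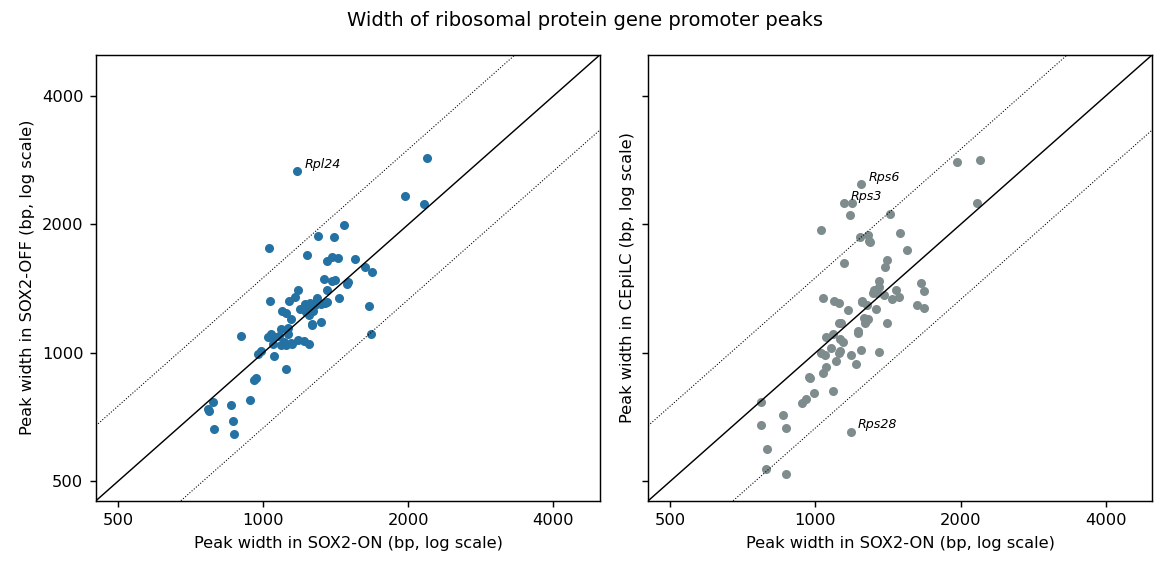
Width of the promoter peak of ribosomal protein genes (points) in SOX2-OFF (left) and CEpiLC (right) against SOX2-ON (bp, log scales), with equality as a solid line and 1.5 times either way as dotted lines. Most genes lie between the dotted lines, with Rpl24 (1178, 2666 and 2103 bp) above the upper line on both sides.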

How the data were processed

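ATAC-seq was carried out on 1 sample each of SOX2-ON, SOX2-OFF and CEpiLC, with 50000 cells per sample and at most 12 PCR cycles. The authors trimmed reads, aligned them to mm10 with BWA, filtered them, removed mitochondrial reads and called broad peaks per sample with MACS2. The deposited fold enrichment is a ratio of pileup to local background, and the deposited −log10 p and −log10 q come from the same caller. All lists ended at a q of about 0.1 (largest 0.0985 to 0.0993). The deposited score is a multiple of −log10 q and was not used. No control library and no shift of cut sites are stated in the sources used here, so peak edges are approximate.

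Starts and genes came from GENCODE M21, sequences from the GRCm38 genome and, for the comparison of starts, the RefSeq promoter table. Peaks within 1 kb of any start were joined to genes with pandas 2.3.3 and numpy 2.4.6 in Python 3.11.15, after a check on simulated data. Intervals are Wilson (shares) or order-statistic binomial (medians) at 95%, from SciPy 1.17.1, and cover counting error or spread over genes only. Read depth was not used here. Comparison lists were mitochondrial ribosomal proteins, proteasome subunits and 21 other TOP genes. The members, lists and tests were chosen with earlier results of these data known. Named genes were those lacking a peak in a list, the 5 highest and 5 lowest by mean percentile, the 3 widest and narrowest, the 3 largest percentile differences of each pair and direction, and a fixed set of well-studied genes and paralogs. Rps12, Rps16, Rpl7a, Rps3, Rps13, Rps18, Rpl18 and Rps28 were named after their values were seen. Some members are not reported by name here. Windows of 500 bp, 2 kb and 0 bp, reference starts only, −log10 q of at least 2 or 5, other rank measures and populations, other peak choices, and leaving out chromosomes or paralogs were tried.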

Additional observations from a re-analysis of the deposited data

How the results depend on the processing

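No paired analysis was possible because a single sample stood in each group, and none could be left out. With −log10 q of at least 2, the median percentile was 92.9, 91.9 and 88.7 in SOX2-ON, SOX2-OFF and CEpiLC, and 8 and 6 members (9.76% and 7.32%, beside 12.8% and 9.73% of coding genes) differed by over 10 points between SOX2-ON or SOX2-OFF and CEpiLC. At 5 or more it was 87.8, 84.8 and 73.1, in CEpiLC below the 75.1 of coding genes, and 4, 49 and 39 members (4.82%, 59.8% and 47.6%, beside 10.5%, 48.1% and 46.4%) differed in the pairs SOX2-ON and SOX2-OFF, SOX2-ON and CEpiLC, and SOX2-OFF and CEpiLC, so the low movement seen among all peaks did not hold in the pairs with CEpiLC. Fewer peaks in a list lower every percentile by construction. Ranked by fold enrichment, the medians were 91.7 in SOX2-OFF and 92.0 in CEpiLC, below the 93.2 and 92.9 of coding genes, and 2 and 3 members (2.41% and 3.66%, beside 8.18% and 10.9%) differed in the pairs with SOX2-ON. Ranked by width they were 80.3, 74.0 and 83.7, below the 83.6, 80.0 and 86.8 of coding genes, with 24, 16 and 37 members (28.9%, 19.5% and 45.1%, beside 19.7%, 19.8% and 34.4%). Among promoter peaks they were 74.6, 71.6 and 69.0 (coding genes 66.5, 66.8 and 66.5), with 15, 33 and 20 members (18.1%, 40.2% and 24.4%, beside 14.5%, 34.4% and 20.2%). Taking the widest peak gave 3, 3 and 3 members (3.61%, 3.66% and 3.66%, beside 13.8%, 14.2% and 12.8%), and 7 members past 1.5 times in width between SOX2-ON and SOX2-OFF. Without chromosomes 6, 8 and 11 the SOX2-OFF median was 93.9. Among core genes presence was 100%, 100% and 100%, and 0 differed by over 10 points between SOX2-ON and SOX2-OFF. The other 126 values from alternatives fixed at the start and 33 from those added after seeing the data stayed within the interval of the reported value or within 1.5 times a count.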
